A study of Olea europaea with 36 samples.

Results

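The long internode pool (LILe) and the large trunk diameter pool (LarD) were compared in active shoot tips of olive seedlings. The comparison took every array whose label names long internode length and every array whose label names large trunk diameter, 3 of each, so 6 of the 36 arrays in the series, over all 37449 contigs on the array. A contig is a transcript sequence assembled from reads, here with 1 intensity in each array. Both pools came from the cross of the varieties Picual and Arbequina, a progeny that segregates for plant architecture. The trees grew in the field, and shoot tips with the apical meristem were harvested at the end of spring, as 3 separate samples for each pool. Tissue of several seedlings was mixed for each RNA sample, so a value is an average over seedlings, and pools could not be resolved to single trees. The study lists 1 set of seedlings for each pool, so p-values between pools rest on the spread between samples of the same seedlings. They do not measure the spread between trees.

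By the phenotypes given for the seedlings, both pools had thick trunks, with trunk diameters that overlapped. Their internode lengths did not overlap: LILe seedlings had long internodes, and those of LarD were as short as in the short internode pool (SILe). Between LILe and LarD, internode length and the identity of the seedlings cannot be told apart, because each is 1 set of seedlings. The other groups used beside these were the parents Picual and Arbequina, SILe and the pool of small trunk diameter (SmaD), both of the same cross, and the varieties Chiquitita and Arbosana, all as active shoot tips of 3 arrays. Ranks over the 12 groups and the fit over 36 arrays also took in dormant shoot tips of Picual and 3 pools of active shoot tips from the cross of Chiquitita and Arbosana: Chiquitita-like canopy (ChiCa), simple branching (BSi) and complex branching (BRam).

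The study's own replicate correlations for LarD and SmaD match the deposited arrays of the other pool, and 1 label field of 2 SmaD arrays names short internodes. LarD is used here for the arrays that the labels call large trunk diameter. If the names were exchanged, the pool compared with LILe would have thin trunks and internode lengths that overlap those of LILe, and the phenotypes given above would not apply to it. With the SmaD arrays in place of LarD, limma called 8 contigs, of which Contig_59827, Contig_22844, Contig_43314 and Contig_12813 were also among the calls against LarD.

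Internodes are the stretches of stem between leaves. Their cells are laid down by the shoot apical meristem and by dividing tissue just below it, and then lengthen, with gibberellins and brassinosteroids among the hormones that promote elongation. Trunk thickening comes from the vascular cambium, a lateral meristem that is absent from the youngest part of a shoot tip. Receptor kinases such as CLV1 and chromatin remodellers such as SYD regulate the stem cells of the apical meristem in Arabidopsis.

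Of the 37449 contigs, 13 (0.0347%) were differentially expressed between the pools, at an adjusted p under 0.05 from limma and at least a 2-fold difference. Contig_59827 was highest in LarD relative to LILe, at 90.9-fold, and the smallest difference among the 13 was 3.96-fold. In LILe, 6 contigs (0.016%) were higher, and in LarD 7 (0.0187%). The arrays of the pools did not overlap for any of the 13, against 9.76% of all contigs. The 13 were chosen on these same arrays, which largely fixes this, so it adds no evidence. Differences of at least 2-fold were found for 829 contigs and of at least 16-fold for 3, and 2037 (5.44%) had an unadjusted p under 0.05. The median difference over all contigs was 0.05 on the log2 scale. The plot of difference against level shows the 13 contigs around a band of small differences.

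**Figure D1:**
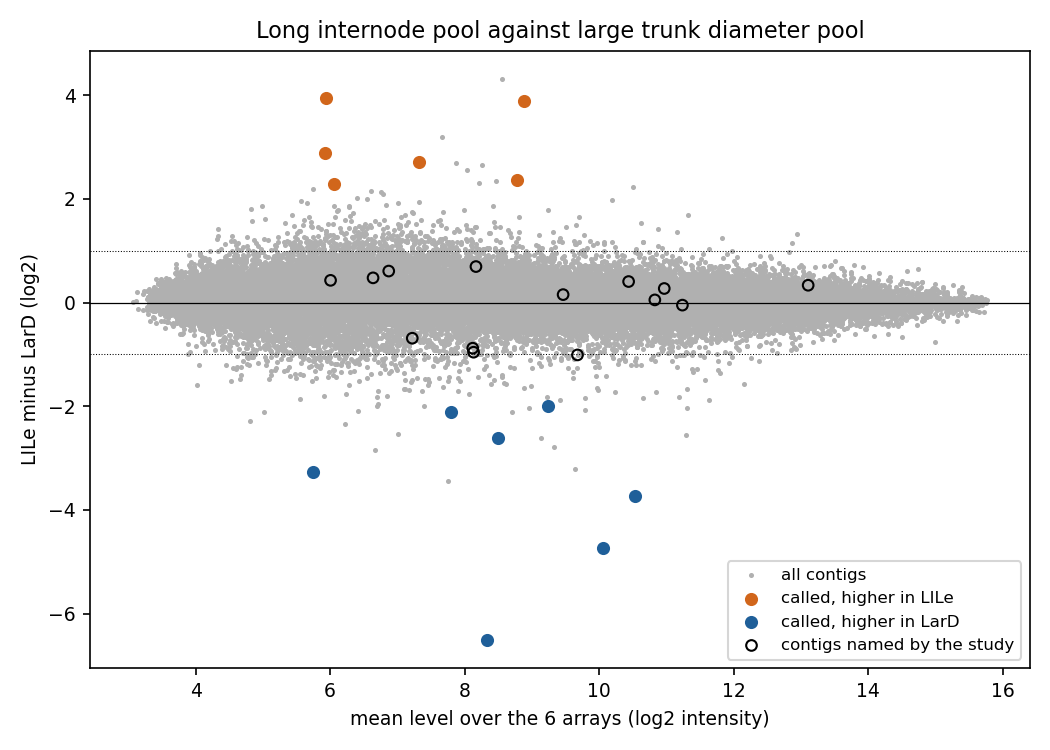
Difference between the pools (LILe minus LarD, log2) against the mean level over the 6 arrays (log2 intensity) for all 37449 contigs. Dotted lines mark 2-fold; the 6 contigs called higher in LILe and the 7 called higher in LarD are filled, the 14 contigs named by the study are open circles, and the grey point above all others is Contig_66830 (log2 difference 4.32, not called).

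Replicate arrays correlated across contigs on the log2 scale at 0.972 to 0.985 within LILe and at 0.965 to 0.992 within LarD, and arrays of different pools at 0.97 to 0.98, so the pairs between pools lay within the range of the pairs inside a pool. LarD replicate 2 stood apart, with 0.965 and 0.968 to replicates 1 and 3 of its pool, which reached 0.992 with each other. It correlated with the 3 LILe arrays at 0.978, 0.976 and 0.976, above its values within LarD. Contigs are not independent replicates, and no test was made on these values. Without LarD replicate 2 the fit called 36 contigs, and without any of the other 5 arrays 2 or 3.

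Contig_59827 had intensities of 33.5, 31.3 and 36.8 in the LILe arrays and of 3292, 2295 and 3840 in the LarD arrays. All 3 LILe arrays were near the bottom of the range and all 3 LarD arrays were bright, with no overlap. The log2 difference was -6.51 (standard error 0.262, adjusted p = 0.00012 from limma), and the call held without each of the 6 arrays in turn. Among the 12 groups of the series, LILe was the lowest for this contig.

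Contig_22844 had intensities of 217, 196 and 209 in LILe and of 7080, 4138 and 5654 in LarD. The LILe arrays were within a narrow range, and the LarD arrays were all brighter. The log2 difference was -4.73 (standard error 0.261, adjusted p = 0.000834 from limma). This call too held without each of the 6 arrays, but not in a fit over all 36 arrays (adjusted p = 0.324 from limma), which takes 1 spread for all groups and called 27 contigs (0.0721%). Chiquitita was one group that ranged widely for this contig (508 ± 855, SD, n = 3 arrays). These were the only 2 of the 13 calls that held without each array. The other 11 were lost in at least 4 of the 6 fits with 1 array left out, while their directions held in all of them.

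The remaining 5 contigs higher in LarD had smaller differences. Contig_13435 had intensities of 561, 585 and 206 in LILe and of 4737, 6006 and 5509 in LarD (log2 difference -3.73, adjusted p = 0.0391 from limma). LILe replicate 3 was the lowest of its pool, and the pools were far apart. Contig_43314 had intensities of 17.8, 19.0 and 15.6 in LILe and of 249, 137 and 136 in LarD (log2 difference -3.26, adjusted p = 0.0221). LILe was the lowest of the 12 groups for it, at the bottom of the array's range, so the size of this difference is uncertain.

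Contig_39396 had intensities of 110, 165 and 172 in LILe and of 882, 907 and 900 in LarD (log2 difference -2.62, adjusted p = 0.0228 from limma). Contig_63900 had 113, 100.1 and 109 in LILe and 435, 448 and 500 in LarD (log2 difference -2.10, adjusted p = 0.0312). Contig_33911 had 283, 339 and 296 in LILe and 1190, 1227 and 1207 in LarD (log2 difference -1.99, adjusted p = 0.0391). In all 3 the arrays of a pool were close to each other, and LarD was the highest of the 12 groups for Contig_33911.

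Of the 6 contigs higher in LILe, Contig_12813 and Contig_63530 had the largest differences, which were within a standard error of each other. The intensities of Contig_12813 were 355, 145 and 274 in LILe and 14.6, 15.8 and 16.3 in LarD (log2 difference 3.96, standard error 0.337, adjusted p = 0.0193 from limma). The LILe arrays were spread over more than 2-fold and all lay above LarD. LILe was the highest of the 12 groups, and in LarD the contig was under the 5th percentile of contig levels, an intensity of 18.

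Contig_63530 had intensities of 2148, 1508 and 1858 in LILe and of 143, 213 and 61.7 in LarD (log2 difference 3.88, standard error 0.429, adjusted p = 0.0417 from limma). Here LarD was the group that stood apart, as the lowest of the 12. Contig_39068 had 1231, 755 and 1072 in LILe and 173, 231 and 181 in LarD (log2 difference 2.37, adjusted p = 0.0426). Contig_66658 had 154, 135 and 150 in LILe and 31.2, 28.9 and 30.4 in LarD (log2 difference 2.28, adjusted p = 0.0228). LarD was the lowest of the 12 groups for both of these as well.

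Contig_26788 had intensities of 441, 382 and 402 in LILe and of 46.0, 74.6 and 70.4 in LarD (log2 difference 2.71, adjusted p = 0.0228 from limma). Contig_61759 had 228, 110 and 177 in LILe and 22.1, 27.9 and 17.7 in LarD (log2 difference 2.89, adjusted p = 0.0419). The pools did not overlap for either, and LILe was the highest of the 12 groups for Contig_61759. Over the 13 calls, 7 lay under the 25th percentile of contig levels (an intensity of 112) in their lower pool and 2 under the 5th. Signal over background was not examined, so folds against such levels are uncertain.

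**Figure D2:**
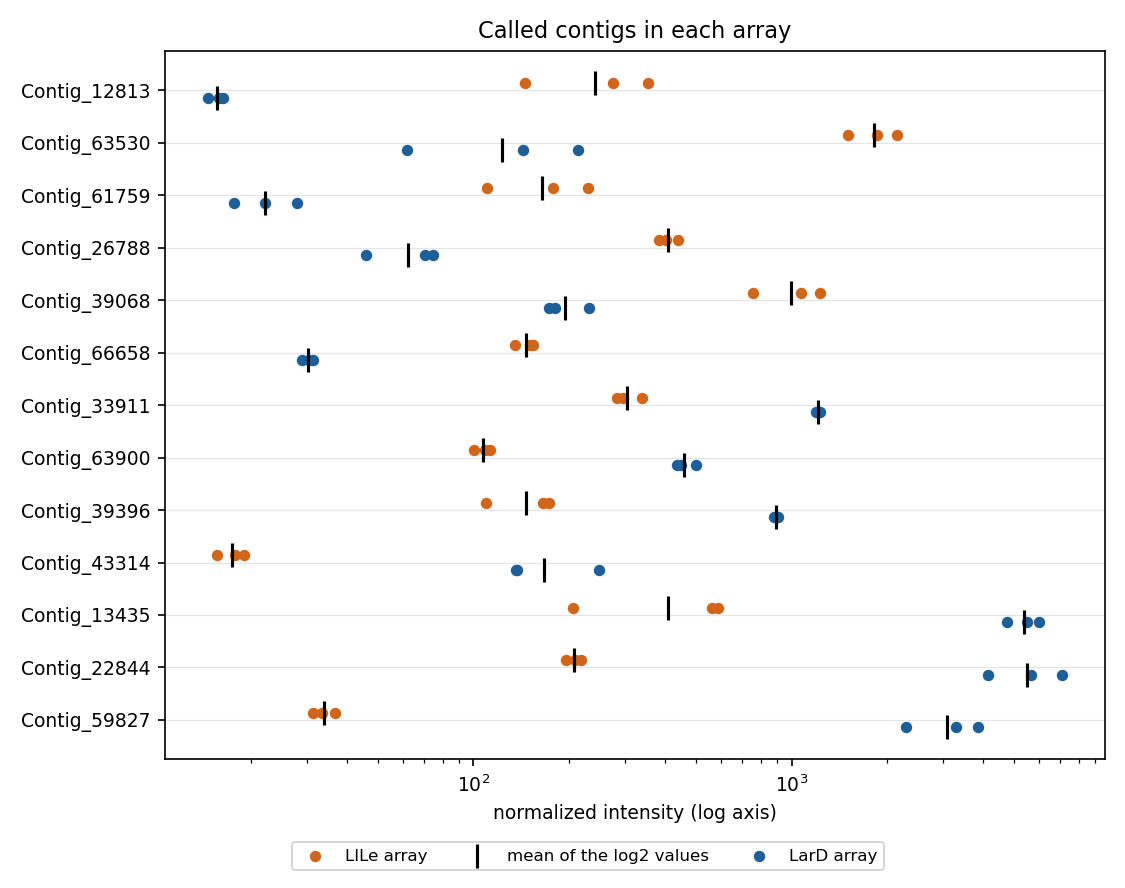
Normalized intensity (log axis) of the 13 called contigs in each LILe array and each LarD array, with the mean of the log2 values of each pool as a bar. In every row the points of the pools are apart, from Contig_59827 at 31.3 to 36.8 against 2295 to 3840 to Contig_33911 at 283 to 339 against 1190 to 1227.

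No table used here gives gene names for the 13 contigs, and no identifier of the array matched the table of RefSeq olive genes, so they are given by number, with no role. The study's list of candidate contigs gives the matching unigenes, assembled transcripts of its reference transcriptome. Some of the 13 are on that list. Arrays of LILe and of LarD entered comparisons behind it, so the list is not independent of these calls. No weight is put on the overlap. The list assigns Contig_59827 and Contig_39396 to the same unigene, so these 2 calls, both higher in LarD, may measure 1 transcript.

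The largest difference among the contigs that were not called was that of Contig_66830, 19.9-fold higher in LILe, with 2402, 1717 and 1168 against 66.3, 207 and 44.4 in LarD (adjusted p = 0.0645 from limma). Next among those higher in LILe was Contig_30193, at 9.14-fold (adjusted p = 0.0592). The pools did not overlap for either, and the LarD arrays of both contigs differed from each other by more than 2-fold. Contig_38690 and Contig_58138 were 4.98-fold and 4.56-fold higher in LILe (adjusted p = 0.0592 and 0.0616). On the LarD side, Contig_66239 was at 253, 156 and 457 in LILe and at 2644, 1650 and 3347 in LarD (log2 difference -3.22, adjusted p = 0.0797). The log2 differences of Contig_7020, Contig_51882 and Contig_23136 were -2.53, -1.99 and -1.84 (adjusted p = 0.0618, 0.0592 and 0.073).

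In all, 465 contigs (1.24%) differed by at least 2-fold with all 3 arrays of a pool above all 3 of the other. Of these, 271 (0.724%) were higher in LILe and 194 (0.518%) in LarD. After a further quantile normalization of the 6 arrays, 440 were separated in this way, 196 higher in LILe and 244 in LarD, so which pool held more of them depended on the scaling.

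The parents of the cross, whose arrays are independent of those of the pools, were compared next: a contig that differs between Picual and Arbequina can segregate among their seedlings. Of all contigs, 2327 (6.21%) were called between the parents at the same thresholds, 1013 higher in Picual and 1314 higher in Arbequina. Of the 13 contigs called between the pools, 11 (84.6%) were also called between the parents. With the parents fitted over all 36 arrays 10 were, since Contig_22844 lost its call (adjusted p = 0.074 from limma). Of the 465 separated contigs, 151 (32.5%, 95% exact binomial interval 28.2 to 36.9) were. The interval covers counting only, since contigs are not independent. With 1 pool array left out the share ran from 12.6% (without LarD replicate 2, with 2431 separated contigs) to 33.7%, and without LILe replicate 1 it was 19.1%. The median absolute log2 difference between the parents was 3.5 for the 13, 0.84 for the 465 and 0.36 over all contigs.

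The parents are not the only varieties that differed at these contigs. Between Chiquitita and Arbosana, a pair chosen after seeing the data, 4 of the 13 were called, 22.4% of the 465 and 5.71% of all contigs. Chiquitita is itself a descendant of Picual and Arbequina, so this pair shares ancestry with the pools. The share also moved with the level of the contigs: without the lowest 25% of contigs by level, 42.2% of the separated contigs and 6.84% of all remaining contigs were called between the parents.

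Contig_59827 was at 3910 ± 240 (SD, n = 3 arrays) in Picual and at 43.9 ± 15.1 in Arbequina (log2 difference 6.54, adjusted p = 5.4e-05 from limma). LarD, at 3140 ± 784, was near Picual, and LILe, at 33.9 ± 2.81, near Arbequina. Contig_39396 was at 1500 ± 430 in Picual and 112 ± 11.3 in Arbequina, and Contig_33911 at 1020 ± 244 and 367 ± 6.59. For these 3 of the 11 contigs LarD was the pool nearer to Picual on the log2 scale.

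For the other 8 of the 11, LILe was nearer to Picual and LarD nearer to Arbequina on the log2 scale. Over all 2327 contigs called between the parents, this held in 432 and the reverse in 179. On intensities LarD was nearer to Picual for Contig_43314 and Contig_63900, and LILe was nearer to Arbequina for Contig_66658. Contig_22844 was at 623 ± 433 in Picual and 6710 ± 198 in Arbequina, beside 207 ± 10.7 in LILe and 5620 ± 1470 in LarD. Contig_13435 was at 435 ± 96.0 in Picual and 7880 ± 633 in Arbequina. Contig_43314 was at 20.1 ± 2.12 in Picual, close to LILe at 17.5 ± 1.69, and at 736 ± 44.8 in Arbequina, above LarD at 174 ± 64.7.

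Contig_26788 was at 559 ± 46.6 in Picual and 24.7 ± 7.5 in Arbequina, and Contig_63900 at 112 ± 20.2 and 1260 ± 108. In Contig_63900 LILe, at 107 ± 6.48, was at the level of Picual, while LarD, at 461 ± 34.4, lay between the parents. Contig_39068 was at 1650 ± 512 in Picual and 273 ± 91.2 in Arbequina. Contig_66658 was at 249 ± 55.2 in Picual and 71.9 ± 7.64 in Arbequina, with LarD, at 30.2 ± 1.19, below both. Contig_61759 had a log2 difference between the parents of 2.20.

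Both contigs that were not called between the parents were higher in LILe. Contig_12813 was at 18.0 ± 4.60 in Picual and 20.4 ± 2.94 in Arbequina (adjusted p = 0.66 from limma), so the intensity of 258 ± 106 in LILe was far above both. Contig_63530 was at 2050 ± 299 in Picual and 1080 ± 93.9 in Arbequina, under 2-fold apart (log2 difference 0.91, adjusted p = 0.0421), and LarD, at 139 ± 75.5, was far below both.

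Over the 151 separated contigs called between the parents, LILe was nearer to Picual and LarD nearer to Arbequina in 66, and the reverse held in 33. Both pools were nearer to Picual in 19 and to Arbequina in 33. Over all 2327 contigs called between the parents, the same classes held 432, 179, 977 and 739, in that order. LILe lay further to the Picual side than LarD in 97 of the 151 (64.2%). Among all 2327 contigs called between the parents this share was 62.7%, so the separated contigs were close to the background in this.

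**Figure D3:**
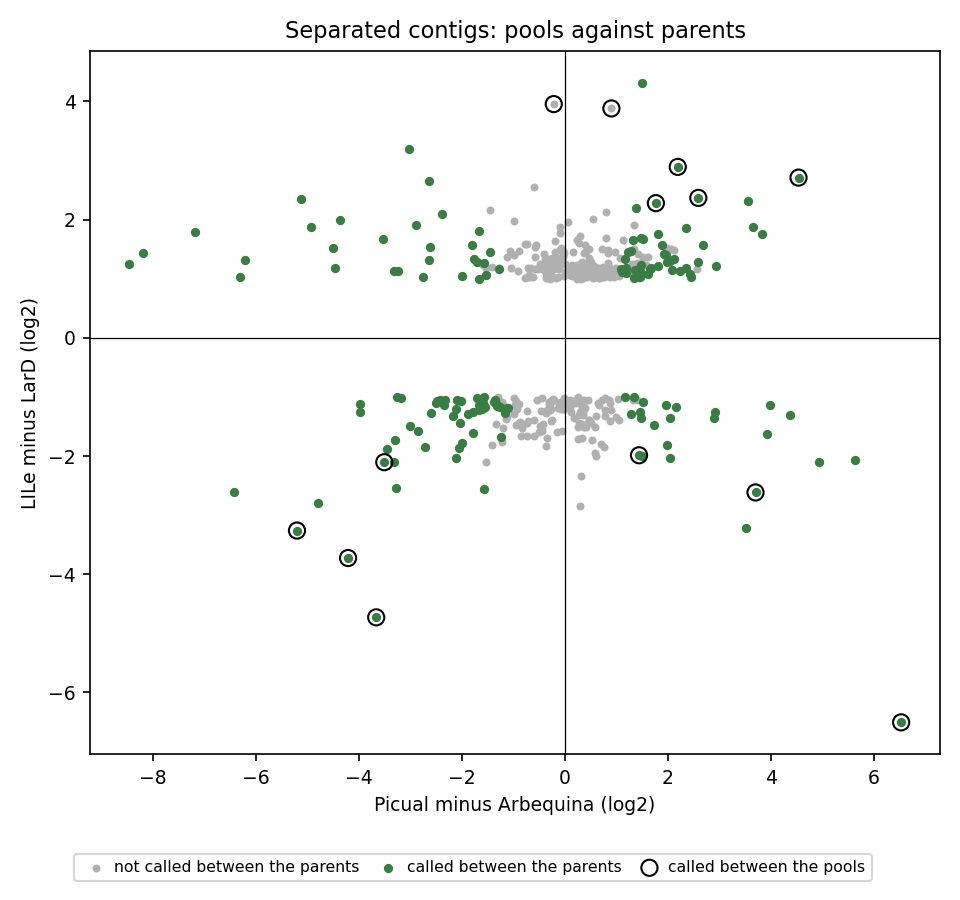
Log2 difference between the pools (LILe minus LarD) against that between the parents (Picual minus Arbequina) for the 465 separated contigs. The 151 called between the parents are green and the 13 called between the pools are circled; 11 of the circled contigs are green, and Contig_59827 lies alone at the lower right.

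In SILe and SmaD, the other pools of the cross, most of the 7 contigs that were higher in LarD were at intermediate levels. Contig_59827 was at 1010 ± 257 in SILe and 2120 ± 105 in SmaD, both well above LILe. Contig_22844 was at 2550 ± 945 in SILe and 2780 ± 471 in SmaD. Contig_33911 was at 821 ± 265 and 827 ± 69.9.

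On the log2 scale SILe was nearer to LarD than to LILe in 7 of these 7 contigs, beside 55.8% of all contigs, and SmaD in 6, beside 42%. In the study's replicate correlations, the lowest values are those of SILe replicate 3 with the other SILe arrays. Without SILe replicate 3, SILe was nearer to LarD in 6 of the 7, beside 38% of all contigs. The exception was Contig_63900, where SILe was at 816 ± 1230 with that array and at 108 ± 22.4 without it. SmaD, at 110 ± 19.5, was also at the level of LILe. Chiquitita was nearer to LarD in 0 of the 7, beside 35.9% of all contigs, and in 3 of the 6 contigs that were higher in LILe.

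For the 6 contigs higher in LILe, SILe and SmaD were each nearer to LarD in 1, Contig_12813, which was at 14.9 ± 0.733 in SILe and 16.3 ± 4.42 in SmaD. Contig_26788 was at 512 ± 175 in SILe and 442 ± 61.5 in SmaD, beside 408 ± 30.1 in LILe and 63.6 ± 15.4 in LarD. Contig_63530 was at 1720 ± 382 in SILe and 1260 ± 131 in SmaD. Contig_61759 was at 70.0 ± 29.9 in SILe and 95.8 ± 48.5 in SmaD, between LILe at 172 ± 59.2 and LarD at 22.6 ± 5.09. These levels are descriptions: LILe and LarD enter each of them, and SILe was not tested against either. LILe was tested against SmaD, and Contig_12813 was called there (adjusted p = 0.0166 from limma). Contig_26788, Contig_63530 and Contig_61759 were not (adjusted p = 0.861, 0.466 and 0.508 from limma).

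**Figure D4:**
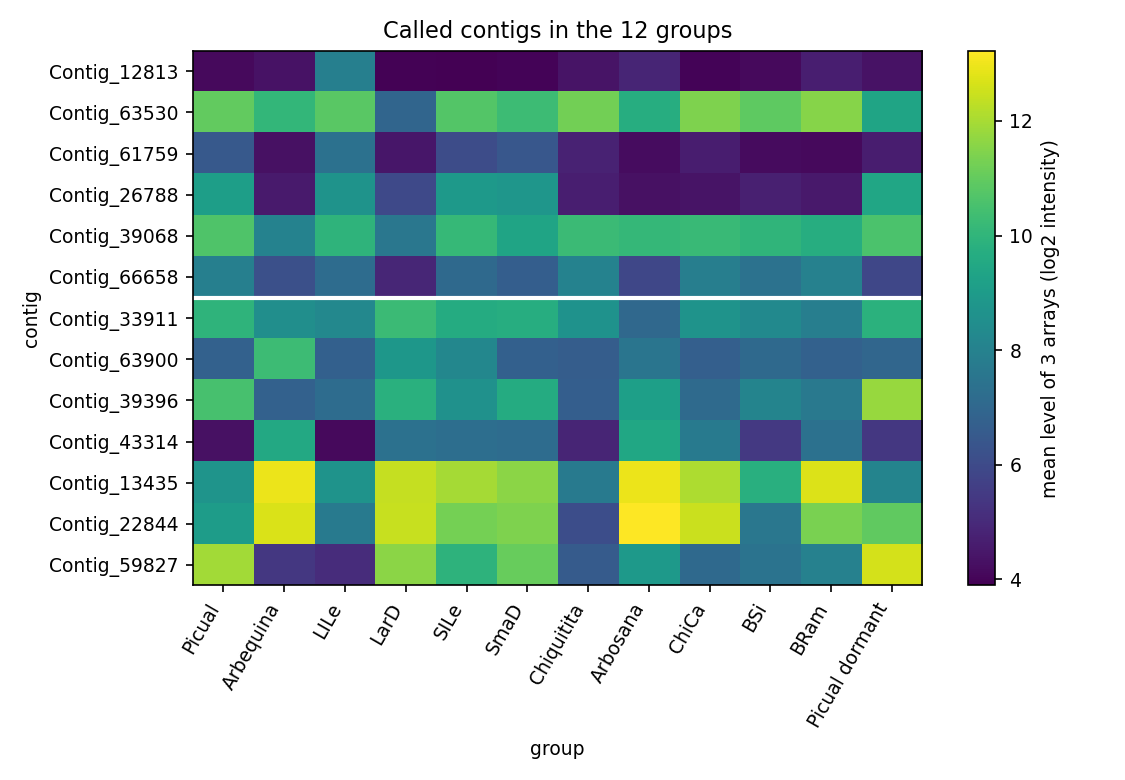
Mean level of 3 arrays (log2 intensity, colour) of the 13 called contigs in the 12 groups of the series, with contigs higher in LILe above the white line and those higher in LarD below it. LILe stands out in Contig_12813, LarD in Contig_63530, and Picual and Arbequina differ in most of the other rows.

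The study named 14 contigs in its text, 11 of them by an Arabidopsis ortholog. Most were candidates from its comparison of Chiquitita-like growth habit, which took in Chiquitita, Arbosana and ChiCa. The study's full list of candidates is much longer, and the 14 do not stand for it. Between LILe and LarD, limma called 0 of the 14, beside 0.0347% of all contigs, a share at which 14 contigs would seldom hold a call. An unadjusted p under 0.05 was found for 2, beside 5.44% of all contigs. The pools did not overlap in 5 of the 14, beside 9.76% of all contigs. The methods' t-test at 2-fold called 0 of them, of 331 on log2 values over all 37449 contigs, and limma with array weights 1, of 499. Primer pairs that identify the transcript were given for 3 of the 5 that did not overlap. They are shown 5′ to 3′ to tie the contig numbers to sequence, and are the study's RT-qPCR primers, not the probes of the array:
DWF4 (Contig_61776) forward: tcctctacaagccacctgct
DWF4 (Contig_61776) reverse: tgtctgcctttgtgaaggtatg
CDC45 (Contig_44219) forward: tctcaaggatgggacaaagg
CDC45 (Contig_44219) reverse: gttgcaatgtaggacgagca
Contig_15512 forward: caattgaagtgggttgtgctt
Contig_15512 reverse: aacaatcaattccacgagcag

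Among contigs tied to hormones, DWF4 encodes in Arabidopsis a hydroxylase that carries out the rate-limiting step of brassinosteroid synthesis. Its intensities were 158, 115 and 166 in LILe and 103, 95.1 and 87.7 in LarD. The LILe arrays were all above those of LarD, with a log2 difference of 0.61 (standard error 0.241, unadjusted p = 0.0342, adjusted p = 0.891 from limma). SPY, a repressor of gibberellin signalling, was at 95.1, 137 and 125 in LILe and at 222, 99.1 and 309 in LarD, and the pools overlapped. SCL30, of the GRAS family of regulators, and SAL1, a phosphatase of inositol phosphates and nucleotides, had log2 differences of 0.05 and 0.27, and their pools overlapped too.

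Of the regulators of stem cells, CLV1, the receptor kinase that restricts the stem cell pool, was at 9206, 9496 and 11260 in LILe and at 9205, 7236 and 7380 in LarD. The pools were set apart only by the near-equal lowest LILe and highest LarD arrays, and the log2 difference was 0.33 (adjusted p = 0.964 from limma). The chromatin remodeller SYD was at 162, 464 and 653 in LILe and at 486, 162 and 148 in LarD, a wide spread in both. The co-repressor TPR1 had means of 77.0 ± 21.7 and 57.6 ± 19.3 (SD, n = 3 arrays), also with overlap.

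SVP, a MADS-box repressor of flowering, had nearly the same level in both pools, with 2252, 2317 and 2558 in LILe and 2659, 2267 and 2456 in LarD. The log2 difference was -0.05 (standard error 0.217). The parents were far apart at this contig, with 1870 ± 582 in Picual and 61.3 ± 25.6 in Arbequina (log2 difference 4.97, adjusted p = 0.000522 from limma), and both pools were at the level of Picual. EDL2, an F-box protein, was at 316, 85.9 and 319 in LILe and at 335, 432 and 372 in LarD (log2 difference -0.88, adjusted p = 0.938). LILe replicate 2 was far below the rest, and the other LILe arrays were close to LarD.

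Of the growth machinery, CDC45, which loads with the helicase at origins of DNA replication, was at 1616, 1630 and 1536 in LILe and at 1161, 1308 and 1146 in LarD. All LILe arrays were above those of LarD, with a log2 difference of 0.41 (standard error 0.213, adjusted p = 0.932 from limma). IRX1, a cellulose synthase of secondary walls, was at 487, 643 and 617 in LILe and at 1354, 409 and 2849 in LarD. LarD replicate 2 was below all LILe arrays and the other LarD arrays above them, so the log2 difference of -1.01 had a standard error of 0.604 (adjusted p = 0.949). SCL30 and CDC45 were also called between the parents, both higher in Picual, with log2 differences of 1.26 and 1.27.

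Of the 3 contigs with no name, Contig_15512 was at 172, 194 and 246 in LILe and at 450, 340 and 393 in LarD. LarD was higher in every array, with a log2 difference of -0.96 (standard error 0.246, unadjusted p = 0.00415, adjusted p = 0.655 from limma). It was the one called with array weights (log2 difference -1.13, adjusted p = 0.0396). Contig_12843 and Contig_29050 overlapped between the pools, with log2 differences of 0.15 and 0.48.

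**Figure D5:**
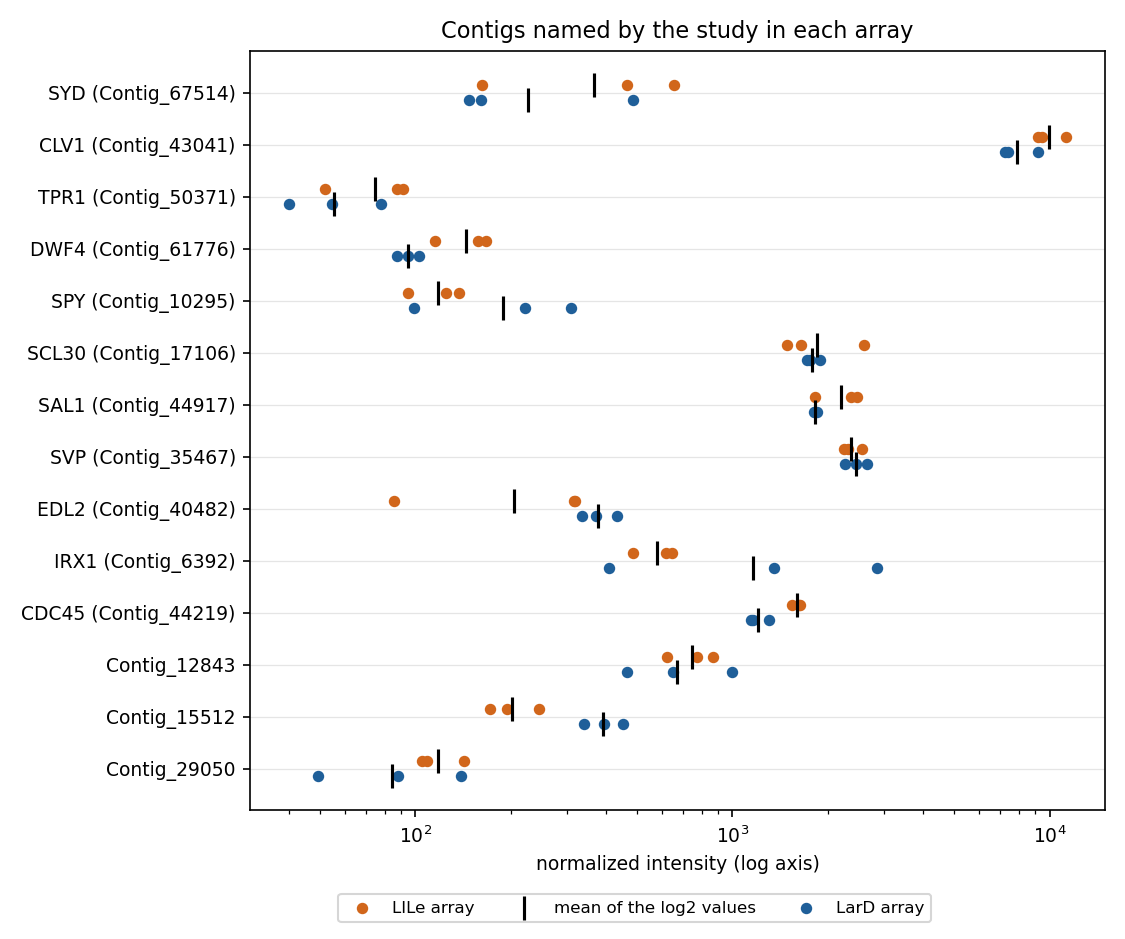
Normalized intensity (log axis) of the 14 contigs named by the study in each LILe and each LarD array, with the mean of the log2 values of each pool as a bar. The arrays of the pools overlap in most rows, are close together for SVP, and are widely spread in LarD for IRX1.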

How the data were processed

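RNA of each sample was hybridized to a NimbleGen olive array. The authors normalized the arrays with RMA and deposited a linear intensity for each contig in each array. The log2 of each intensity was taken. A further deposited table, with 36 columns named by array barcode, could not be keyed to samples and was not used. Scan dates and slides are not given in the sources used here. Arrays have no read depth, and their number limits the precision.

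limma 3.58.1 (lmFit, eBayes; R 4.3.3) was fitted to the 6 arrays compared (4 residual degrees of freedom), with no covariate or filter, and Benjamini-Hochberg adjustment over 37449 contigs. An exact permutation test of 3 against 3 arrays cannot reach the threshold for a single contig and was not used. The scripts were tested on simulated data. Python 3.11.15, pandas and matplotlib were used for figures. Contigs were named as follows: the 14 named by the study; the 10 in each direction with the smallest p among those separated by at least 2-fold; and the 5 in each direction with the largest difference among those with p under 0.01. Members, lists and rules were chosen with earlier results of these data known.

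Over all contigs, replicate numbers did not pair LILe with LarD arrays (correlations of deviations -0.11, -0.08 and -0.15). Between Picual and Arbequina they were 0.29, 0.22 and 0.28, so these numbers may mark pairs. With the block for the parents 2755 contigs were called, and 11 of the 13 as before. Along the main direction in which replicates of other groups differ, LILe and LarD had the same order by number. Replicates 1 to 3 were at 51.8, 7.74 and 63.1 in LILe and at 86, 28.9 and 98.6 in LarD. Alternatives were other array sets, the methods' t-test, array weights, blocks, normalizations, a filter on dim contigs, a covariate, exchanged pools and left-out arrays.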

Additional observations from a re-analysis of the deposited data

How the results depend on the processing

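The 13 calls moved with the setting. There were 27 with all 36 arrays (10 shared with the 13), 38 with 35 arrays (all but SILe replicate 3; 11 shared), 499 with array weights (all 13 shared), 2 with the replicate block, 2 with the direction in which replicates of other groups differ as a covariate, 8 with SmaD in place of LarD (4 shared), and 2 to 36 with 1 array left out. The methods' t-test gave 331 on log2 values and 276 on linear intensities, and 0 on both after Benjamini-Hochberg adjustment. Over all contigs the numbers did not pair LILe with LarD, but along the direction used as a covariate both pools had the same order by number. Whether the block is needed was not settled. Of the 18 alternatives followed for single contigs, Contig_59827 was called under all and Contig_22844 under 16. Those 18 include the methods' t-test at unadjusted p. They leave out its 2 adjusted forms, under which neither contig was called. Over the alternatives followed for single contigs, no called contig changed direction in 230 fits, and 85 lost the call. Of the 14 contigs named by the study, 0 were called, and 1 with array weights. Small log2 differences among them changed sign for SCL30 (-0.046 with array weights, -0.19 to 0.21 with 1 array left out), SVP (0.014 with the covariate, -0.11 to 0.0078 with 1 array left out) and Contig_12843 (-0.11 to 0.44 with 1 array left out).

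The 465 separated contigs became 275 without the lowest 25% of contigs and 462 to 2431 with 1 array left out. The share called between the parents was 12.6% to 33.7% with 1 array left out, 42.2% with the filter and 22.4% for Chiquitita against Arbosana. Between the parents, 551 to 3332 contigs were called with 1 array left out. With 3 arrays per pool and no signal over background, small and dim differences were not resolved.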
